A study of Rattus norvegicus with 12 samples.

Results

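The cytosolic ribosomal protein genes are the genes that encode the protein components of the ribosome outside mitochondria. They were chosen by symbol, as genes named Rpl or Rps with a number and at most a closing a, x or l, together with Rplp0, Rplp1, Rplp2 and Rpsa, and by a minimum of 10 counts in at least 3 samples. Of the 18483 genes in the table, 82 had such a symbol and 79 of them reached the minimum, 46 of the large and 33 of the small subunit. Rpl39 and Rpl35a, with few counts in the table, and Rpl3l, the striated-muscle form of Rpl3, did not reach it. Rps19 is present as 2 genes (NCBI genes 29287 and 108348115), so the 79 genes bear 78 distinct symbols.

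RNA was sequenced from neonatal rat ventricular myocytes (NRVMs), heart muscle cells of newborn Sprague-Dawley rats in primary culture, in 4 groups with 3 biological replicates each. All 12 cultures were transfected, either with the control siRNA (siNeg) or with one directed at the zinc transporter Slc39a2 (siSlc39a2), for which only 1 sequence was used. The groups siNeg PE and siSlc39a2 PE then received phenylephrine (PE), an adrenergic agonist that makes cardiomyocytes grow, for 36 h by the sample labels (the culture methods of the study give a longer time, so the duration is uncertain), and siNeg and siSlc39a2 remained untreated. The culture methods of the study name a medium with insulin, transferrin and selenium for the time before transfection or treatment. They do not name the medium after that, so insulin may have been present in the control cultures too.

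The ribosome is built from ribosomal RNA and ribosomal proteins, which are needed in equal numbers, and their mRNAs are therefore made at similar levels and rank among the most abundant in a growing cell. In vertebrates these mRNAs begin with a run of pyrimidines, the 5′ terminal oligopyrimidine (TOP) motif, which ties their translation and stability to the kinase mTOR and the RNA-binding protein Larp1. In heart muscle, hypertrophic growth depends on more protein synthesis, and production of ribosomes is part of it.

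To show starts with and without such a run, 12 windows are printed. They are those of 5 genes with large falls after Slc39a2 knockdown and of 3 genes with little or no fall. The others are of Rps27 and Rpl10 beside their alternative forms Rps27l and Rpl10l. Each window holds 15 bases before and 15 bases from the annotated transcription start, on the strand of the gene. The windows are from RefSeq on GRCr8, which is not the build of the counts (Rnor_6.0). That of Rpl10l is from the RefSeq entry named Rpl10l1. Capitals mark a run of at least 5 pyrimidines that reaches within 5 bases of the start.
Rplp0 (chr12:46718376-46718405, minus strand): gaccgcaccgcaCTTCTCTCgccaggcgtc
Rpl12 (chr3:36661925-36661954, plus strand): ggagcaacatccgTCTTTTCggctttcggt
Rps2 (chr10:14251833-14251862, plus strand): CCTCTTCTTTTTCTTCgggaaaacacgtga
Rpsa (chr8:128728864-128728893, plus strand): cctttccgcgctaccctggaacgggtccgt
Rps16 (chr1:92770643-92770672, plus strand): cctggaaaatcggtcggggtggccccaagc
Rpl4 (chr8:73566462-73566491, plus strand): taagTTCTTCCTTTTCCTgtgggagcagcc
Rps24 (chr16:96502-96531, plus strand): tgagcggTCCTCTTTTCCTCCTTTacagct
Rpl5 (chr14:1995211-1995240, minus strand): aCTCTCTTTCCCacgtcgcttgcgtcctgg
Rps27 (chr2:177964592-177964621, minus strand): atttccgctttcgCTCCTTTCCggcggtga
Rps27l (chr8:76443643-76443672, plus strand): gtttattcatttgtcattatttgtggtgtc
Rpl10 (chrX:157205835-157205864, plus strand): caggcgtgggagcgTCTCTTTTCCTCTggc
Rpl10l (chr6:90281968-90281997, minus strand): tttggtctccattttgctgctggcggtgag

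Of the 79 genes, 60 had a RefSeq start, and 42 of these (70.0%) had such a run, against 27.5% of 27457 RefSeq promoters. The run was present at Rpl4, Rps24 and Rpl5, whose mRNAs fell little or not at all. No such run was marked in the windows of Rpsa and Rps16, whose mRNAs were among those that fell most. The Rpsa window does open with pyrimidines, but they end too far before the annotated start to be marked. Which genes count as having a run thus depends on the annotated start. The median log2 fold change of siSlc39a2 against siNeg was -0.42 in the 42 genes with a run, with a range from -0.65 to -0.07, and -0.30 in the 18 genes without one, with a range from -0.71 to 0.21, so the ranges overlapped widely. In the 300 bases from 250 before to 50 after the start, searched on both strands, CCGGAA, the core of the ETS factor motif, was present in 51.7% of the 60 genes and in 15.8% of all promoters. CTTTCC, which can lie inside a pyrimidine run, was present in 45.0% against 26.4%. AAGATGG, which resembles the YY1 core, was present in 13.3% against 7.3%, and TATAAA in 10% against 14.3%.

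Total counts per sample were between 24065539 and 28603854. All 10 cardiomyocyte markers were present, with a summed level of 57400 to 59300 CPM in siNeg and 46500 to 47800 CPM in siSlc39a2, and with PE of 62800 to 67700 and 64500 to 68000 CPM (CPM, counts divided by the TMM-scaled size of the library and brought to a common total). Slc39a2 itself had 50, 50 and 59 counts in siNeg, 95, 198 and 182 in siNeg PE, 21, 11 and 2 in siSlc39a2, and 31, 25 and 38 in siSlc39a2 PE. With knockdown Slc39a2 changed by -2.35 on the log2 scale without PE (standard error 0.46, edgeR adjusted p = 0.00098) and by -2.33 with PE (standard error 0.38, edgeR adjusted p = 0.000224). All p-values are from the edgeR quasi-likelihood test over 13967 genes with Benjamini-Hochberg adjustment, and a gene was called at an adjusted p below 0.05. The p-values set a change against the spread between samples within groups, which was estimated from all 4 groups together.

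Ribosomal protein genes are known for their many processed copies in the genome, which can make reads hard to assign. In 17 of the 79 genes the count was a whole number in all 12 samples, and in 62 it was fractional in at least 1 sample, as in estimates that divide reads between genes. Over all genes in the table, 70.0% had whole counts. The fractional genes, 34 of the large and 28 of the small subunit, are given with levels that are uncertain in this respect, and the 12 large and 5 small subunit genes with whole counts are described apart.

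By length-scaled level (FPKM, fragments per kilobase of gene length, scaled to library size), the ribosomal protein mRNAs lay close together and near the top of the transcriptome. Averaged over the 12 samples, 68 of the 79 genes were between 200 and 2000 FPKM, with a median of 800 FPKM. Of the 100 genes with the highest mean FPKM, 32 were ribosomal protein genes, against 3 of the 100 genes with the highest mean count, since the genes are short (median 487 nt, against 2434 nt in the other genes tested). The highest were Rps2, a protein near the mRNA entry channel of the small subunit, at 2370 FPKM, Rpl41, the smallest ribosomal protein, at 2250 FPKM, and Rplp1, a protein of the large-subunit stalk, at 2160 FPKM. The lowest were Rpl39l at 2.01 FPKM and Rpl10l at 17.5 FPKM, both known as testis forms of ribosomal proteins, and the second Rps19 gene (108348115) at 39.2 FPKM. The median FPKM was 699 in large subunit genes with whole counts, 762 in those with fractional counts, and 612 and 853 in the small subunit.

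The share of all counts that came from ribosomal protein genes was highest in siNeg and lowest in siSlc39a2 PE. It was 4.81%, 4.29% and 4.0% in the siNeg samples, 4.04%, 3.96% and 3.83% in siNeg PE, 3.44%, 3.65% and 3.51% in siSlc39a2, and 3.21%, 3.03% and 2.81% in siSlc39a2 PE. Every knockdown sample was below every siNeg-transfected sample, both without and with PE, and the siSlc39a2 PE samples were below the siSlc39a2 samples, while siNeg PE overlapped siNeg. The summed level in untreated cultures had a mean of 46109 ± 5257 CPM (SD, n = 3) with siNeg and 33730 ± 1251 CPM with siSlc39a2. In PE cultures the means were 39528 ± 1583 and 29972 ± 2015 CPM. Divided by the siNeg mean, the other means were 0.857 with PE, 0.732 with knockdown and 0.650 with both. In these cultures of mixed cells, fewer cells of a type and less RNA per cell cannot be told apart, and a share of the counts says nothing of the amount of RNA per cell.

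**Figure D1:**
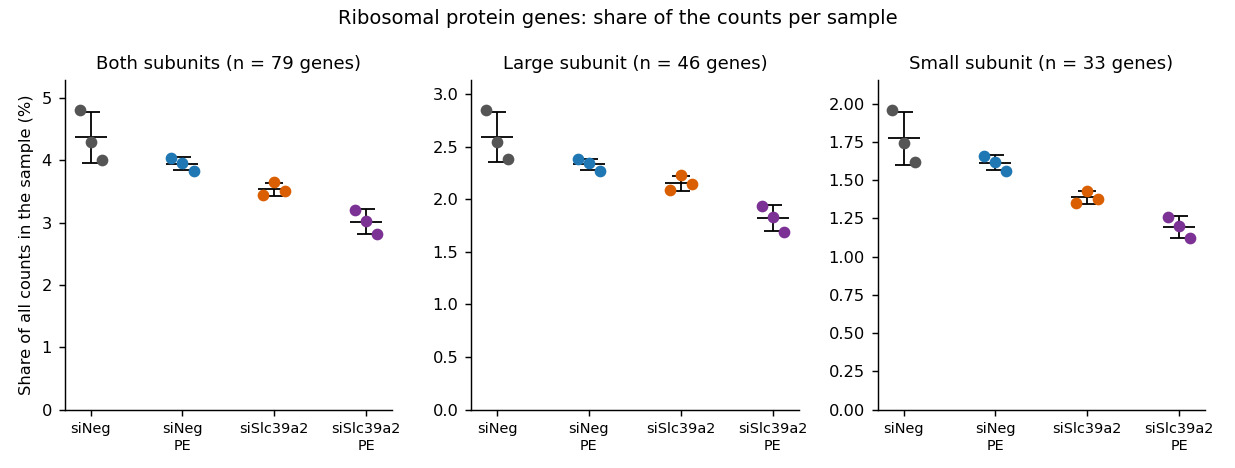
Share of each sample's counts (%, y axis, from 0) that came from all 79 ribosomal protein genes, the 46 of the large subunit and the 33 of the small subunit, in the 4 groups. Points are samples, and bars are the mean and SD of 3 samples. The siNeg samples spread from 4.0% to 4.81%, and the siSlc39a2 PE samples, from 2.81% to 3.21%, lie lowest in each panel.

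Ribosomal protein genes deviated together within groups, by most in the first siNeg replicate. In it, 77 of the 79 genes were above the mean of their group, with a median deviation of 0.19 on the log2 scale, against -0.01 over all genes. The corresponding medians were -0.04 and -0.15 in siNeg replicates 2 and 3, and between -0.11 and 0.11 in the other 9 samples. In siNeg PE replicate 1, siSlc39a2 replicate 2 and siSlc39a2 PE replicate 1, 75, 74 and 72 of the genes were likewise above the mean of their group. Ribosomal protein mRNAs thus moved up or down together within a group as well as between groups, and the counts of genes called were also computed without each sample.

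Slc39a2 knockdown lowered most ribosomal protein mRNAs of both subunits by a moderate amount. In siSlc39a2 against siNeg, 65 of the 79 genes (82.3%) fell and 1 rose, with a median log2 fold change of -0.40 and a range from -0.71 to 0.21. Of all 13967 genes tested, 26.4% fell and 22.8% rose, with a median of -0.02. The 3 siSlc39a2 samples were all below the 3 siNeg samples in 58 ribosomal protein genes, against 30.6% of all genes. None changed by more than 1 on the log2 scale with an adjusted p below 0.05, the threshold of the study, which 9.78% of all genes passed. With each sample left out in turn, between 46 and 69 genes fell, with 50 without the first siNeg replicate. On FPKM values made equal in distribution between samples (quantile normalization) and tested by limma, 27 fell, 2 rose and the median was -0.10.

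**Figure D2:**
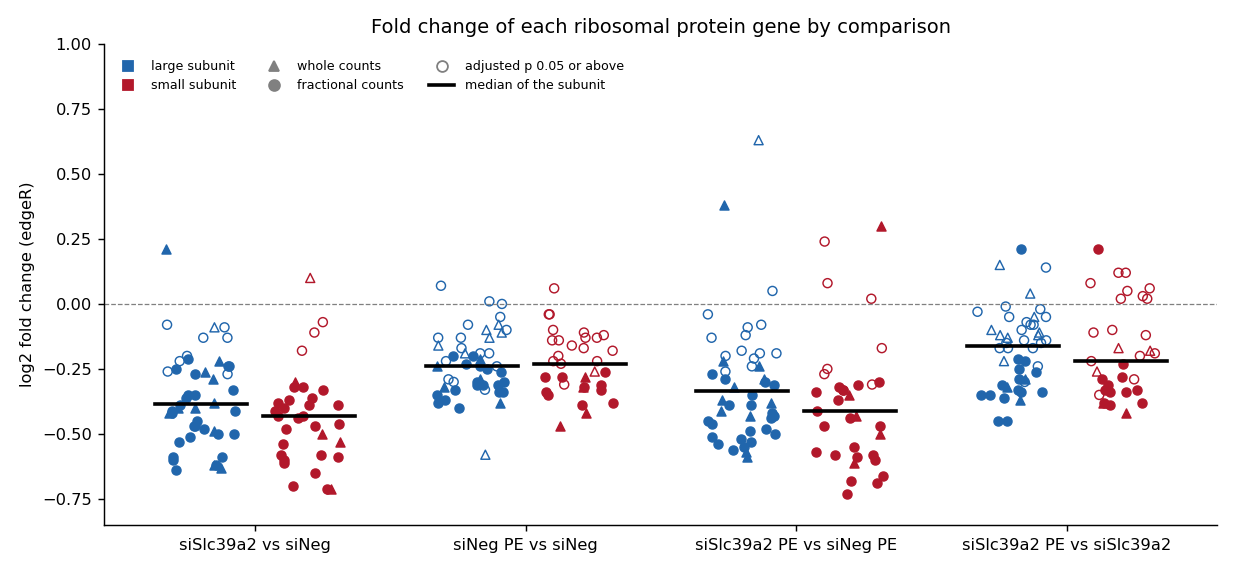
Log2 fold change (edgeR, y axis) of each ribosomal protein gene in the 4 comparisons (x axis), with the large subunit in blue and the small subunit in red. Triangles are genes with whole counts and circles genes with fractional counts, filled where the adjusted p was below 0.05, and black lines are the medians of each subunit. In siSlc39a2 against siNeg the medians are -0.38 and -0.43, and most points are filled.

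The proteins of the stalk, which recruits translation factors to the large subunit, were among those that fell. Rplp0, the base of the stalk and a gene with whole counts, had 2950, 2610 and 2510 CPM in siNeg and 1760, 1790 and 1670 CPM in siSlc39a2. With PE it had 2480, 2410 and 2310 CPM in siNeg PE and 1770, 1580 and 1490 CPM in siSlc39a2 PE. The knockdown samples were all below the siNeg-transfected ones, with a log2 fold change of -0.63 without PE (standard error 0.08, edgeR adjusted p = 2.63e-05) and of -0.57 with PE (standard error 0.08, edgeR adjusted p = 5.1e-05). Rplp1 and Rplp2, the acidic proteins of the stalk, fell by 0.59 and by 0.45 on the log2 scale without PE (edgeR adjusted p = 0.00132 and 0.00424). Rpl12, which lies at the foot of the stalk and was singled out after its values were seen, went from 226 ± 14.6 to 145 ± 3.49 CPM (SD, n = 3). None of these 4 genes was called in siNeg PE against siNeg, where their log2 fold changes were between -0.30 and -0.13.

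In the small subunit Rpsa and Rps16 had large falls. Rpsa, also known as the laminin receptor precursor, had 1930, 1770 and 1660 CPM in siNeg and 1100, 1130 and 1030 CPM in siSlc39a2, and its log2 fold change was -0.71 (standard error 0.07, edgeR adjusted p = 3.36e-06). Rps16 had 1380, 1200 and 1080 CPM in siNeg and 750, 773 and 730 CPM in siSlc39a2. The log2 fold change was -0.70 (standard error 0.09, edgeR adjusted p = 5.46e-05). In both genes the groups were far apart, and the first siNeg replicate was the highest sample each time. Rps2 fell by 0.65 and Rps3, which sits at the mRNA entry and also has roles in DNA repair, by 0.59 on the log2 scale. The smallest falls called over both subunits were those of Rpl7 and Rpl4, at -0.22 and -0.21.

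Genes known for functions beyond the ribosome did not move alike. Rpl5 and Rpl11, which with the 5S RNA bind Mdm2 when ribosome assembly is disturbed, had log2 fold changes of -0.09 and -0.20 (edgeR adjusted p = 0.286 and 0.0814). Rpl5 had 416, 407 and 416 CPM in siNeg and 360, 379 and 427 CPM in siSlc39a2, so the groups overlapped. Rpl23, a gene with whole counts that also binds Mdm2, fell by 0.29, from 434 ± 64.6 to 355 ± 14.5 CPM (SD, n = 3), but its log2 fold change was 0.06 after quantile normalization of FPKM. Rpl22, which binds RNA of viruses and is known as a tumour suppressor in T cells, had a log2 fold change of -0.26 (edgeR adjusted p = 0.0505). Rps6, the substrate of the S6 kinases, had 204, 210 and 173 CPM in siNeg and 139, 182 and 198 CPM in siSlc39a2, with overlap between the groups and a log2 fold change of -0.18 (edgeR adjusted p = 0.255). Rpl13a, which silences inflammatory mRNAs after interferon-γ, fell by 0.53 (edgeR adjusted p = 0.000135). Rps14, the gene lost in the 5q- syndrome, and Rps19 (29287), the first gene linked to Diamond-Blackfan anaemia, fell by 0.41 and by 0.61. For Rps14 the edgeR adjusted p was 0.0175, and it was as high as 0.191 over the 18 alternatives.

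Of the alternative forms Rpl10l, Rps27l and Rpl39l, 3 genes with whole counts and low levels, 1 was called. Rpl10l had 21.4, 19.1 and 19.5 CPM in siNeg and 23.8, 23.3 and 22.5 CPM in siSlc39a2, and was the single gene that rose (log2 fold change 0.21, standard error 0.07, edgeR adjusted p = 0.0224, which was as high as 0.229 over the 18 alternatives). Rpl10, the widely used form that joins the large subunit last, fell from 1120 ± 125 to 813 ± 11.3 CPM (SD, n = 3), and its log2 fold change was -0.47. Rps27l, a form induced by p53, had 111, 84.2 and 79.2 CPM in siNeg and 94.1, 102 and 96.9 CPM in siSlc39a2, with overlap (log2 fold change 0.10, edgeR adjusted p = 0.534), while Rps27 had a log2 fold change of -0.36 (edgeR adjusted p = 0.0326), or 0.03 after quantile normalization of FPKM. Rpl39l had less than 1 CPM in every siNeg and siSlc39a2 sample, and no change was detectable at this depth. Rpl3, whose muscle form Rpl3l had at most 7 counts in any sample, fell from 795 ± 8.42 to 566 ± 27.9 CPM (SD, n = 3), and its log2 fold change was -0.49, and its siNeg samples were closer together than those of most other ribosomal protein genes.

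Counts by subunit and by kind of count were alike in siSlc39a2 against siNeg. In the large subunit 36 of 46 genes fell, with a median log2 fold change of -0.38, and in the small subunit 29 of 33 fell, with a median of -0.43. Of the 17 genes with whole counts 14 fell (median -0.40), and of the 62 with fractional counts 51 fell (median -0.41). The whole-count genes split into 10 of 12 in the large and 4 of 5 in the small subunit, the fractional ones into 26 of 34 and 25 of 28. Whether reads shared with other genes played a part in single values was not tested.

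The ratio of large to small subunit mRNA, as summed CPM, was a little higher after knockdown. The ratio was 1.45 to 1.47 in siNeg against 1.55 to 1.56 in siSlc39a2, and with PE 1.44 to 1.45 against 1.5 to 1.54, without overlap between siNeg-transfected and knockdown samples. This was seen in the fractional genes, with a mean of 1.14 ± 0.00176 (SD, n = 3) in siNeg and 1.24 ± 0.00581 in siSlc39a2, and not in the whole-count genes, where the mean was 4.25 ± 0.114 in siNeg and 4.23 ± 0.0161 in siSlc39a2. Among the latter the ratio was higher with PE instead, at 4.74 ± 0.0114 in siNeg PE and 4.77 ± 0.128 in siSlc39a2 PE. Leaving out Rpsa and Rps2, the small subunit genes of highest level with the largest falls, a choice made after seeing the data, the ratio was between 1.86 and 1.92 in siNeg and between 1.93 and 1.96 in siSlc39a2. Both genes had fractional counts, and without them the groups still did not overlap.

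PE alone lowered about as many ribosomal protein mRNAs as it left uncalled, and by less. In siNeg PE against siNeg, 37 of the 79 genes (46.8%) fell and none rose (0 in edgeR), against 25.7% and 24.0% of all genes, and the median log2 fold change was -0.24 with a range from -0.58 to 0.07. The siNeg PE samples were all below the siNeg samples in 36 genes, against 30.5% of all genes, and none passed the threshold of the study, which 6.60% of all genes did. In the large subunit 23 of 46 genes fell and in the small subunit 14 of 33, with medians of -0.24 and -0.23. This count rested on single samples. It was 17 without the first siNeg replicate, 22 without siNeg PE replicate 2 and 18 without siNeg PE replicate 3. On quantile-normalized FPKM 6 genes fell, 5 rose and the median was 0.00. With other scaling factors, and on FPKM without quantile normalization, the median stayed below 0, between -0.23 and -0.14.

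The largest falls with PE were those of Rps27l, Rps15 and Rpl28. Rps15, a small subunit protein with whole counts, had 753, 611 and 560 CPM in siNeg and 490, 497 and 452 CPM in siNeg PE. This was a log2 fold change of -0.42 (standard error 0.10, edgeR adjusted p = 0.00519). Rpl28 had 552, 467 and 421 CPM in siNeg and 385, 366 and 344 CPM in siNeg PE. The log2 fold change was -0.40 (standard error 0.10, edgeR adjusted p = 0.00554). Rps27l fell by 0.47, from 91.5 ± 17.2 to 66.2 ± 8.64 CPM (SD, n = 3, edgeR adjusted p = 0.00742). In all 3 genes the siNeg PE samples were below the siNeg samples. The smallest falls called were those of Rpl10l, by 0.21, and of Rpl23a and Rpl29, by 0.20 each. For Rpl10l the edgeR adjusted p was 0.0255, and it was as high as 0.103 over the 18 alternatives. Rpsa and Rps2 had log2 fold changes of -0.13 and -0.16 (edgeR adjusted p = 0.126 and 0.101), and Rpl4 and Rpl5, proteins of the large subunit, had 0.07 and 0.01.

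In the presence of PE, knockdown again lowered most of these mRNAs. In siSlc39a2 PE against siNeg PE, 56 genes (70.9%) fell and 2 rose, against 28.1% and 29.2% of all genes, with a median log2 fold change of -0.37, and none passed the threshold of the study, which 11.6% of all genes did. The siSlc39a2 PE samples were all below the siNeg PE samples in 66 genes, against 31.7% of all genes. In the large subunit 31 of 46 fell (median -0.33) and in the small subunit 25 of 33 (median -0.41). All 56 genes that fell here were among the 65 that fell without PE. As 65 of the 79 genes fell there, a large overlap was to be expected, and the overlap over all genes was not computed. The 2 comparisons share no sample, but they share the siRNA sequence and the fit. With each sample left out in turn, between 48 and 58 genes fell.

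The largest falls with knockdown under PE were in the small subunit. Rps4x, an X-linked gene, had 855, 760 and 778 CPM in siNeg PE and 504, 484 and 452 CPM in siSlc39a2 PE. This was a log2 fold change of -0.73 (standard error 0.07, edgeR adjusted p = 2.8e-06). Rps29 had 420, 390 and 371 CPM in siNeg PE and 266, 231 and 233 CPM in siSlc39a2 PE. The change was -0.69 on the log2 scale (standard error 0.11, edgeR adjusted p = 0.000143). Rps19 (29287) fell by 0.68, from 516 ± 34.8 to 323 ± 31.5 CPM (SD, n = 3), whereas the second Rps19 gene (108348115) had 15.9 ± 1.22 and 18.8 ± 1.75 CPM and was not called. The smallest fall called was -0.22, for Rpl7. The 2 genes that rose were alternative forms. Rpl10l had 17.3, 17.4 and 17.2 CPM in siNeg PE and 22.9, 22.2 and 22.3 CPM in siSlc39a2 PE (log2 fold change 0.38, standard error 0.07, edgeR adjusted p = 0.00057), and Rps27l had 76.1, 60.6 and 61.8 against 87.1, 82.7 and 75.2 CPM, which overlapped (log2 fold change 0.30, edgeR adjusted p = 0.0481, which was as high as 0.164 over the 18 alternatives).

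Rps9 had a single sample apart from its group. It had 104, 183 and 178 CPM in siSlc39a2 PE, so that the first replicate was far below the others, while Rps9l1, a further gene of nearly the same name that is not among the 79, had 313, 234 and 203 CPM in the same samples, highest in the first replicate. Their sum was 418, 417 and 381 CPM, with no sample apart, against 551, 506 and 519 CPM in siNeg PE. Both genes had fractional counts, and they were looked at after their values were seen.

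With TMM, PE in knockdown cells gave the smallest median change of the 4 comparisons, but the order depended on the scaling and the samples. With RLE factors the median was -0.20, against -0.23 with PE alone. With total counts these medians were -0.24 and -0.16, and with upper-quartile factors -0.21 and -0.19. Without the first siNeg replicate the median with PE alone was -0.13. In siSlc39a2 PE against siSlc39a2, 30 genes (38.0%) fell and 2 rose, against 29.3% and 30.7% of all genes, with a median log2 fold change of -0.18, and none passed the threshold of the study, which 10.5% of all genes did. The siSlc39a2 PE samples were all below the siSlc39a2 samples in 42 genes, against 32.7% of all genes. The count of 30 was 18 without siSlc39a2 replicate 2 and 19 without siSlc39a2 PE replicate 3. Rpl28 had 337, 355 and 325 CPM in siSlc39a2 and 275, 247 and 223 CPM in siSlc39a2 PE (log2 fold change -0.45, standard error 0.10, edgeR adjusted p = 0.00176). Rpl7a fell equally by 0.45, and Rpl13 fell least, by 0.21. Rpl4 rose from 532, 547 and 569 CPM to 639, 627 and 640 CPM (log2 fold change 0.21, standard error 0.05, edgeR adjusted p = 0.00422), without overlap. Rps24, the small subunit protein also linked to Diamond-Blackfan anaemia, rose from 327, 363 and 389 CPM to 420, 418 and 413 CPM by the same 0.21 (edgeR adjusted p = 0.0449, which was as high as 0.185 over the 18 alternatives).

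**Figure D3:**
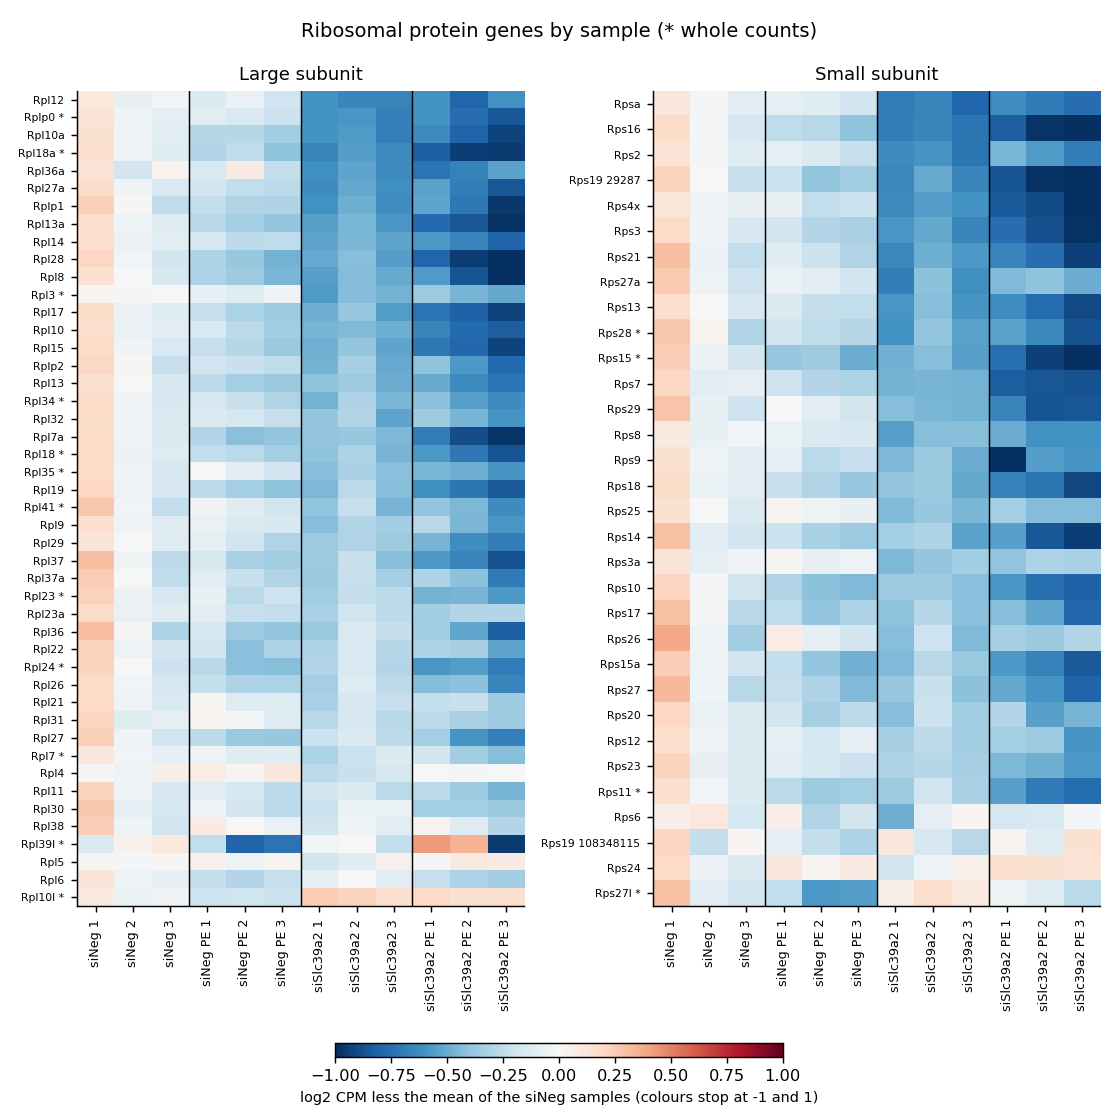
Log2 CPM of 78 of the 79 ribosomal protein genes (rows, ordered by the log2 fold change of siSlc39a2 against siNeg) in each of the 12 samples (columns), less the mean of the siNeg samples, for the large and the small subunit. Blue is lower and red higher, colours stop at -1 and 1, and an asterisk marks whole counts. The column of siNeg replicate 1 is red in nearly all rows, and Rpl10l is above 0 in all knockdown samples.

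Whether the knockdown effect differed with PE was tested by the interaction of both. None of the 79 genes was called in either direction (0 in edgeR, DESeq2 and limma), against 1.88% of all genes with a lower and 1.73% with a higher effect. At an unadjusted edgeR p below 0.05 there were 0 of the 79 genes, against 2235 of all 13967. The log2 interaction ranged from -0.23 for Rps29 (standard error 0.15) to 0.72 for Rpl39l (standard error 0.46), with a median of 0.04 and a median standard error of 0.13, so that a difference of moderate size in a single gene would not have been seen. The 2 PE comparisons, which share no sample, had 25 fallen genes in common, and the overlap over all genes was not computed. The 8 genes called in none of the 4 comparisons were Rpl5, Rpl11, Rpl30, Rpl36, Rpl38, Rpl39l, Rps6 and the second Rps19 gene (108348115).

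The length of a gene moved with the fold change over the whole transcriptome. Lengths were inferred from the ratio of count to FPKM. In siNeg PE against siNeg, the other genes between 250 and 500 nt had a median log2 fold change of -0.29 and the ribosomal protein genes of that length -0.26, and between 500 and 750 nt the values were -0.24 and -0.28. The medians with PE were thus close to those of other genes between 250 and 750 nt, although 68.2% of the ribosomal protein genes and 36.2% of the other genes between 500 and 750 nt fell. In siSlc39a2 PE against siSlc39a2 the medians were -0.28 against -0.19 and -0.26 against -0.25. With knockdown the medians lay further apart above 500 nt. In siSlc39a2 against siNeg, other genes had medians of -0.28 between 250 and 500 nt, -0.14 between 500 and 750 nt and -0.09 between 750 and 1000 nt, against -0.36, -0.47 and -0.50 in ribosomal protein genes. Of the 450 other genes between 500 and 750 nt 31.8% fell, against 86.4% of the 22 ribosomal protein genes, and restricting the other genes to a mean of at least 1000 counts gave 42.8%. Between 250 and 500 nt, other genes so restricted had a median of -0.32, and 57.3% of them fell. The 39 ribosomal protein genes of that length had a median of -0.36, and 82.1% fell. With PE present, the medians of the knockdown effect between 500 and 750 nt were -0.12 and -0.49. Between 250 and 500 nt they were -0.22 in other genes and -0.31 in ribosomal protein genes. The part of length in these results was not tested.

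**Figure D4:**
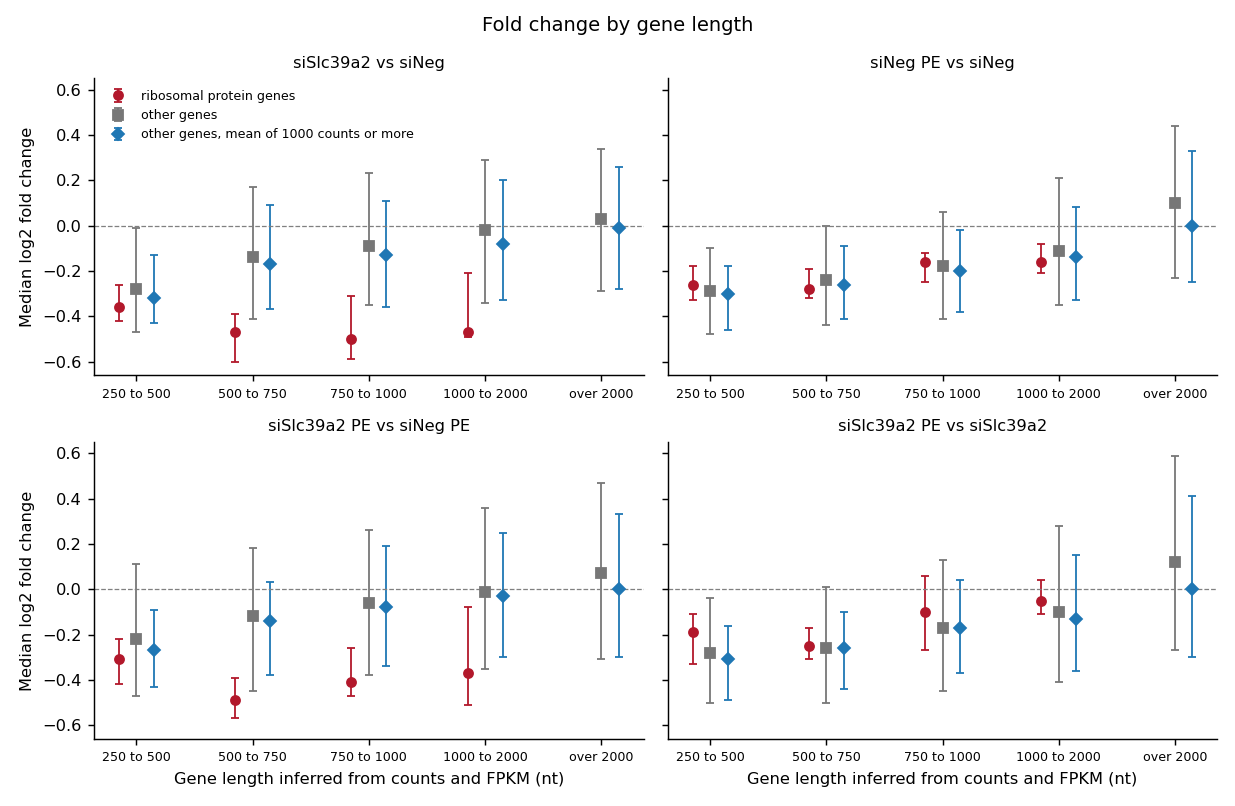
Median log2 fold change (y axis) by gene length (x axis, nt, inferred from counts and FPKM) for ribosomal protein genes (red), all other genes tested (grey) and those other genes with a mean of at least 1000 counts (blue), in the 4 comparisons. Bars are the quartiles over genes. In siNeg PE against siNeg the medians of ribosomal protein and other genes lie close together between 250 and 750 nt, and in siSlc39a2 against siNeg the ribosomal protein genes lie lower above 500 nt, at -0.47 against -0.14 between 500 and 750 nt.

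Some markers of other cells moved with the groups. The summed level of 10 fibroblast markers was 13900 to 18400 CPM in siNeg, 9220 to 11800 in siNeg PE, 5390 to 5700 in siSlc39a2 and 3640 to 5030 in siSlc39a2 PE. Nearly all of this sum was Col1a1, Col3a1 and Col1a2, with means of 10800, 3530 and 1750 CPM in siNeg, and all 3 fell with PE, whereas Pdgfra and Dcn rose with PE by 0.74 and 0.44 on the log2 scale. In siSlc39a2 against siNeg 7 of the 10 fell, among them the collagen genes, and 1, Tcf21, rose, against 26.4% and 22.8% of all genes. All 4 smooth muscle markers fell in that comparison, from a sum of 1930 to 1980 CPM to 752 to 761 CPM. With knockdown under PE none of them fell (0 in edgeR) and 1 rose, with sums of 1180 to 1530 CPM in siNeg PE and 1250 to 1370 CPM in siSlc39a2 PE. Of 10 cardiomyocyte markers 5 fell and none rose with knockdown without PE (0 in edgeR). With knockdown under PE 4 fell and 1 rose, against 28.1% and 29.2% of all genes. Endothelial markers summed to at most 22.0 CPM in any sample, with Emcn at 0 in at least 1, and macrophage markers to at most 25.8 CPM. The part of these cells in the fall of ribosomal protein mRNAs was not tested.

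Other gene lists of the translation machinery moved in different directions. They were written by hand with earlier results of these data known. Of 18 other mRNAs with a TOP motif, 12 (66.7%) fell and none rose in siSlc39a2 against siNeg (0 in edgeR), against 26.4% and 22.8% of all genes. The median log2 fold change was -0.39, close to that of the ribosomal protein genes. With PE present 12 (66.7%) fell and 4 (22.2%) rose, against 28.1% and 29.2% of all genes. Over the alternatives the first count was between 7 and 12. Eef2, the elongation factor of translocation and a gene with whole counts, had 4770 ± 201 CPM in siNeg and 2800 ± 176 in siSlc39a2 (SD, n = 3). This was a log2 fold change of -0.77 (standard error 0.07, edgeR adjusted p = 2.28e-06). Eef1b2, the exchange factor of elongation factor 1, fell by 0.78, and Vim, the intermediate filament protein of mesenchymal cells, by 0.83. Naca, a chaperone subunit for nascent chains, fell by 0.34 with knockdown and by 0.57 with PE. In FPKM its means were closer together, at 477 in siNeg, 461 in siSlc39a2 and 422 in siNeg PE. Over the alternatives its log2 fold change came as near 0 as -0.04 with knockdown and -0.11 with PE. Tpt1, a well known TOP mRNA, had a log2 fold change of -0.06 (edgeR adjusted p = 0.532). It was named after its value was seen.

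Of 7 ribosomal protein genes whose names the rule did not take, 4 fell and 1 rose in siSlc39a2 against siNeg. These were 57.1% and 14.3% of the list, against 26.4% and 22.8% of all genes. Rack1, the scaffold on the small subunit, fell from 1380 ± 128 to 895 ± 40.6 CPM (SD, n = 3), and its log2 fold change was -0.62 (edgeR adjusted p = 9.17e-05). Fau, which encodes Rps30 as a fusion with a ubiquitin-like protein, fell by 0.41. Rpl7l1, a form of Rpl7 that acts in ribosome assembly, rose from 121 ± 3.24 to 162 ± 6.02 CPM (SD, n = 3), and its log2 fold change was 0.42 (edgeR adjusted p = 4.03e-05).

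Genes of ribosome biogenesis, which process ribosomal RNA and assemble the subunits in the nucleolus, went the other way. Of 69 such genes, 40 (58.0%) rose and 2 (2.9%) fell in siSlc39a2 against siNeg (median log2 fold change 0.35), against 22.8% and 26.4% of all genes. With PE present 47 (68.1%) rose and 2 (2.9%) fell (median 0.47), against 29.2% and 28.1% of all genes. Over the alternatives the first count was between 31 and 52. PE alone raised 27 (39.1%) and lowered 10 (14.5%), against 24.0% and 25.7% of all genes. Rpf2, which brings the 5S complex to the large subunit, had a mean of 3.83 ± 0.615 CPM in siNeg and 8.22 ± 1.11 CPM in siSlc39a2 (SD, n = 3), and with PE of 6.27 ± 0.222 and 16.2 ± 2.21 CPM. Without PE its log2 fold change was 1.1 (standard error 0.15, edgeR adjusted p = 5.73e-05). Noc3l and Wdr43, further assembly factors, rose by 1.00 and 0.93, and Heatr1, of the small subunit processome, by 0.69. These mRNAs are far less abundant than those of ribosomal proteins, with a sum of 2150 to 2170 CPM over the list in siNeg.

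The initiation, elongation and termination factors, a list that also holds Eef2 and Eef1b2, fell and rose in similar numbers in siSlc39a2 against siNeg. Of 45, 14 (31.1%) fell and 13 (28.9%) rose (median -0.01), against 26.4% and 22.8% of all genes. Etf1, the termination factor, rose by 0.72 and Eif2s2, a subunit of the initiator tRNA carrier, by 0.71. With knockdown under PE 24.4% fell and 44.4% rose, against 28.1% and 29.2% of all genes. With PE in knockdown cells 20.0% fell and 44.4% rose, against 29.3% and 30.7% of all genes. Of 36 genes of the mTOR pathway 14 (38.9%) fell and 6 (16.7%) rose in siSlc39a2 against siNeg, against 26.4% and 22.8% of all genes. Eif4ebp2, a repressor of cap-dependent translation, fell from 259 ± 0.585 to 142 ± 7.77 CPM (SD, n = 3), and Ddit4l, an inhibitor of mTOR complex 1, from 22.2 ± 6.06 to 10.5 ± 0.376 CPM. Larp1, the protein that binds TOP mRNAs and was named after its value was seen, rose by 0.47 on the log2 scale (edgeR adjusted p = 0.00147). Of 23 eIF2 kinases and interferon-induced regulators of translation 21 rose and none fell (0 in edgeR), with a median log2 fold change of 3.46. Isg15, the ubiquitin-like interferon product, had 7.02 ± 1.00 CPM in siNeg and 1010 ± 47.1 in siSlc39a2 (SD, n = 3), and Ifit3, which binds with Ifit proteins that recognise foreign RNA caps, had 1.12 ± 0.304 and 419 ± 23.7 CPM.

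**Figure D5:**
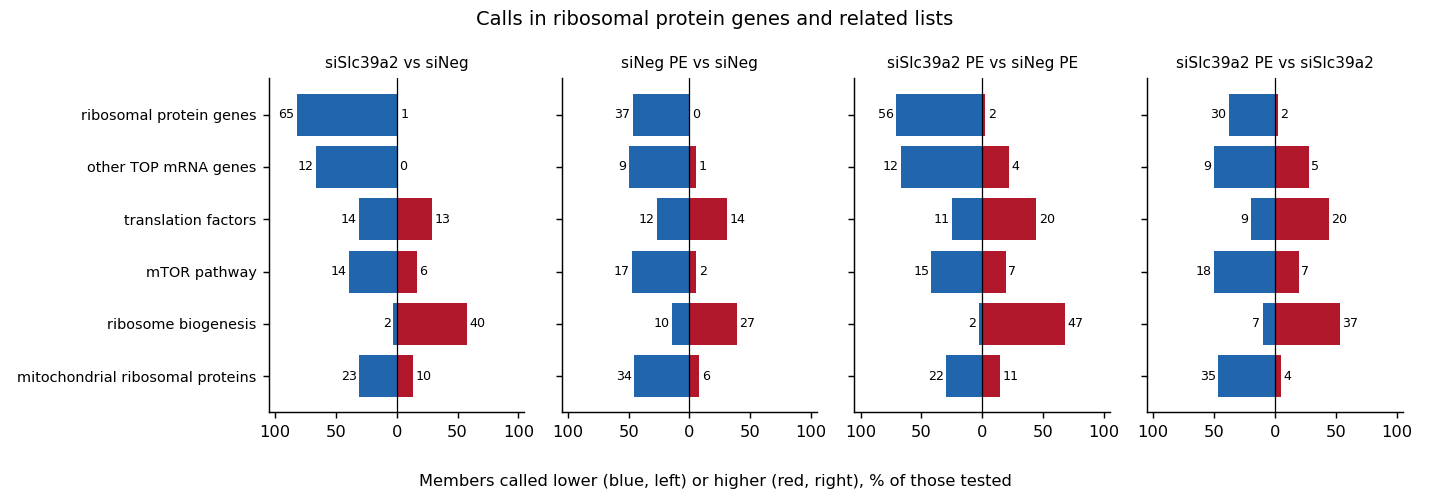
Share of genes called lower (blue, to the left) and higher (red, to the right) at an edgeR adjusted p below 0.05, in % of those tested, for ribosomal protein genes and 5 related lists (rows) in the 4 comparisons (panels). Numbers at the bars are genes. In siSlc39a2 against siNeg 65 of 79 ribosomal protein genes are lower and 40 of 69 ribosome biogenesis genes are higher.

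The proteins of the mitochondrial ribosome, which has its own set of proteins, are given beside the cytosolic ones, and the difference between the lists was not tested. In siSlc39a2 against siNeg 23 of 75 (30.7%) fell and 10 (13.3%) rose, against 26.4% and 22.8% of all genes. The median log2 fold change was -0.02, close to that of all genes. In siNeg PE against siNeg 34 (45.3%) fell and 6 (8.0%) rose, against 25.7% and 24.0% of all genes. The median was -0.20, near the values of the cytosolic genes in that comparison. In siSlc39a2 PE against siSlc39a2 35 (46.7%) fell and 4 (5.33%) rose, against 29.3% and 30.7% of all genes, with a median of -0.23. Mrpl34 and Mrps17 fell with knockdown by 0.64 and by 0.62, and Mrpl47 rose by 0.67.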

How the data were processed

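The authors deposited expected counts per gene, not normalized, and FPKM values of the same 18483 genes. The submitters' processing notes name HISAT, Bowtie2 and Rnor_6.0, and the counting program and sequencing strand are not given in the sources used here. Counts were rounded and normalized by TMM, and all 12 samples were fitted in 1 model of 4 groups (8 residual degrees of freedom) with the quasi-likelihood test of edgeR 4.0.16 (R 4.3.3) on the 13967 genes kept by filterByExpr. Whole counts were exact whole numbers in all samples. The members and gene lists were chosen with earlier results of these data known. Genes named are the 3 highest and 3 lowest called members of each comparison, alternative forms, stalk proteins and Rpsa, members with known regulatory roles, the 3 most and least abundant, and the 3 largest changes of each related list. Others are said to be named after their values were seen. Some genes that the rule names are not reported here. The scripts were tested on simulated data. Alternatives were RLE, upper-quartile and total-count scaling, DESeq2 1.42.0, no filter, the replicate block, the compared groups alone, limma 3.58.1 after quantile normalization with pseudocounts of 1 and 0.1, and each sample left out. After seeing the data, limma without quantile normalization and on log2 CPM with TMM was added.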

Additional observations from a re-analysis of the deposited data

Results flagged for a closer look

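The knockdown effect on Slfn2, an interferon-induced Schlafen gene, was smaller with PE, with a log2 interaction of -1.06 (edgeR adjusted p = 0.000221), from 3.46 without PE to 2.40 with PE. The knockdown effect on Ifit1bl, an Ifit family gene with fractional counts, was also smaller with PE, with a log2 interaction of -1.17 (edgeR adjusted p = 0.0214), from 5.75 to 4.58.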

How the results depend on the processing

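Most values kept their direction, and in siSlc39a2 against siNeg and siNeg PE against siNeg quantile normalization gave the fewest falls. With limma after quantile normalization on log2(FPKM + 1), 27 fell and 2 rose in siSlc39a2 against siNeg (median -0.10), 6 and 5 in siNeg PE against siNeg (median 0.00), 46 and 4 in siSlc39a2 PE against siNeg PE (median -0.17), and 25 and 8 in siSlc39a2 PE against siSlc39a2 (median -0.06). With log2(FPKM + 0.1) the numbers were 25 and 2 (median -0.10), 4 and 3 (median 0.00), 4 that rose (median -0.17) and 7 that rose (median -0.07). Without quantile normalization, log2(FPKM + 1) gave 44 that fell (median -0.26), then 21 and 1, and 1 that rose in the last comparison, with a median interaction of -0.10. On quantile-normalized log2(count + 1), 35 fell and 0 rose with knockdown (median -0.21), 7 fell with PE, 1 rose with knockdown under PE, and the median interaction was -0.10. The cause was not tested.

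With total counts in place of TMM, the median of all genes in siSlc39a2 against siNeg went from -0.02 to 0.13, and that of the ribosomal protein genes from -0.40 to -0.25, with 44 that fell, so the distance between them was the same. 1 gene rose with PE and 1 with PE in knockdown cells, and the median interaction was -0.09. The rise of 2 genes was 1 with RLE and upper-quartile factors in siSlc39a2 PE against siNeg PE, and 1 with RLE, upper-quartile factors, DESeq2 and no filter in siSlc39a2 PE against siSlc39a2. The log2 ratio of the share to siNeg was -0.45 in siSlc39a2 and -0.62 in siSlc39a2 PE on CPM, and -0.43 in siSlc39a2 PE as a share of FPKM.

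With each sample left out in turn, the genes that rose were between 0 and 1 with knockdown, 1 and 3 with knockdown under PE, and 1 and 3 with PE in knockdown cells. The genes that fell were between 17 and 52 with PE, and between 18 and 37 with PE in knockdown cells. Of the 65 genes that fell with knockdown, 46 fell in all 6 of these fits and 24 in all 18 alternatives. Of the 37 that fell with PE, 17 and 2 did, and of the 56 that fell with knockdown under PE, 48 and 39 did.

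The groups share replicate numbers, and whether these pair the samples is not known. The deviations of same-numbered siNeg and siNeg PE samples correlated at 0.315, 0.0535 and 0.206, and those of siNeg and siSlc39a2 at -0.0107, 0.00409 and 0.025. The mean correlation of same-numbered samples was 0.191 for siNeg and siNeg PE, and 0.00614 for siNeg and siSlc39a2. Deviations were taken from the mean of each group, so the correlations of other samples follow from these and give no comparison. Whether samples of the same number share a batch cannot be told from these values. With the number as a replicate block, 68 genes fell with knockdown, 51 with PE, 63 with knockdown under PE and 41 with PE in knockdown cells, where 3 rose.

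After quantile normalization the log2 fold change with knockdown was 0.06 for Rpl23, 0.09 for Rpl41 and 0.03 for Rps27 on both FPKM scales. That of Naca was 0.12 with knockdown under PE, or 0.03 without quantile normalization, and 0.05 with PE in knockdown cells. The interaction of Ifit1bl was 0.01 on log2(FPKM + 1). With 3 samples a group, differences near the median standard error of 0.09 are not resolved for single genes.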
